A study of Mus musculus with 18 samples.

Results

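Amino acids cross the plasma membrane through carrier proteins of the solute carrier (Slc) families. The mRNAs of 9 such carriers, namely Slc7a11, Slc7a5, Slc3a2, Slc7a1, Slc1a4, Slc1a5, Slc38a1, Slc38a2 and Slc6a9, were followed in NIH-3T3 cells, an established line of mouse embryonic fibroblasts. They were chosen by symbol from the 23420 genes of the count table, all 9 were found, and all 9 were among the 11762 genes with enough reads to test. The study treated wild-type (WT) cells and an Nrf1 knockout (KO) line, made with CRISPR/Cas9, with DMSO as the vehicle or with carfilzomib (CFZ), an irreversible proteasome inhibitor, at 200 nM for 6 h or 24 h. RNA-sequencing gave 3 biological replicates in each of the 6 groups, 18 libraries in all. No time is given for DMSO, so both CFZ times were set against the same DMSO libraries of a line. The KO is a single line, so a difference between the 2 lines and the loss of Nrf1 cannot be told apart.

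Slc3a2 encodes the heavy chain (4F2hc, CD98) that brings several light chains to the cell surface. Among these light chains, Slc7a5 (LAT1) exchanges large neutral amino acids such as leucine, and Slc7a11 (xCT) imports cystine in exchange for glutamate, which feeds glutathione synthesis. Slc7a1 (CAT1) takes up arginine and lysine without a heavy chain. Slc1a4 (ASCT1) and Slc1a5 (ASCT2) exchange small neutral amino acids, with glutamine among the substrates of ASCT2. Slc38a1 (SNAT1) and Slc38a2 (SNAT2) take up glutamine, alanine and other neutral amino acids together with sodium, and Slc6a9 (GlyT1) takes up glycine. Several of these genes are textbook targets of ATF4, the transcription factor of the amino acid and ER stress responses, and Slc7a11 is also a known target of Nrf2, a relative of Nrf1.

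ATF4 with its C/EBP partners is known to bind the C/EBP-ATF response element, and Nrf1 and Nrf2 with small Maf proteins are known to bind the antioxidant response element. The core letters TGATGNAA and TGACNNNGC of the 2 elements were therefore searched on both strands of promoter windows from RefSeq (GRCm38.p6). Windows were at hand for 6 of the 9 genes, each from 250 bases before the transcription start to 50 bases after it. No windows were used for Slc7a5, Slc1a5 and Slc38a1. The TGATGNAA core was found in Slc7a11, at -66 to -59 and again, on the other strand, at -47 to -40, and in Slc1a4, across the start at -4 to 4. Of all 32851 windows of this length, 3.97% held it. The TGACNNNGC core was found at -27 to -19 in Slc38a2, at -11 to -3 in 1 of the 2 windows of Slc7a1, and in 2 of the 3 windows of Slc6a9, at -46 to -38 and -45 to -37, against 12.4% of all windows. No match overlapped one of the other core, and the Slc3a2 window held neither. A match is a description of the letters and no evidence of binding. The stretches below show the matches of 4 genes, in capitals, with each sequence 5′ to 3′ on the gene's own strand. They lie at chr3:50443614-50443763 (Slc7a11), chr11:20332710-20332863 (Slc1a4), chr15:96699729-96699878 (Slc38a2) and chr5:148399905-148400054 (Slc7a1), all on the minus strand.
Slc7a11: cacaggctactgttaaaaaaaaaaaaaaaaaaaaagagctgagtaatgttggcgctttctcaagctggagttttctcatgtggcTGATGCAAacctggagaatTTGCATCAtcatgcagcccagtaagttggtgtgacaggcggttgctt
Slc1a4: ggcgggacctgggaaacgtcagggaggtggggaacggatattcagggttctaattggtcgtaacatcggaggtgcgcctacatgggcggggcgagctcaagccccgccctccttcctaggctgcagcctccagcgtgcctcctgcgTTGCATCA
Slc38a2: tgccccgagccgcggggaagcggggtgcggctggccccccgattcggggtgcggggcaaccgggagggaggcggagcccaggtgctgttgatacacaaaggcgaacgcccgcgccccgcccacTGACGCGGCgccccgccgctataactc
Slc7a1: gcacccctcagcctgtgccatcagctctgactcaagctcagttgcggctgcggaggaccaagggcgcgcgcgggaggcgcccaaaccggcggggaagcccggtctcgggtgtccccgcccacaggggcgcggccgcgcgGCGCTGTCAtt

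Total counts per library ran from 8333148 to 23917081 (median 14419832), and a carrier gene had between 505 and 21795 reads in a library. Levels are given as CPM, the counts of a library scaled to a common total with the TMM method, and a gene was called changed at an adjusted p under 0.05 in edgeR's quasi-likelihood test, without a minimum fold. Nfe2l1, the gene of Nrf1, stood at 437 to 457 CPM in the WT DMSO libraries and at 174 to 185 CPM in the KO DMSO libraries, a difference of -1.31 ± 0.034 (SE) on the log2 scale (adjusted p = 1.6e-24). It remained below WT at both CFZ times (log2 -0.62 at 6 h and -1.47 at 24 h). Within KO, however, it rose 2.32-fold at 6 h, to 413.5 to 427 CPM, against 1.43-fold in WT (adjusted p = 3.5e-24 and 2.6e-15). All 8 fibroblast markers were detected in every library, but their summed level fell at 24 h of CFZ, from 32810 to 35660 CPM in WT DMSO to 8088 to 8381 CPM in WT and from 27350 to 33620 CPM in KO DMSO to 10810 to 12840 CPM in KO. The summed level of 5 epithelial markers stayed at or below 13.0 CPM in every library, that of 4 leukocyte markers at or below 17.4 CPM, that of 3 endothelial markers at or below 3.83 CPM, and that of 3 adipocyte markers at or below 0.118 CPM, with Epcam, Krt18, Cldn4, Cd3e, Plin1 and Lep at 0 in all 18. Within these low levels the endothelial sum was higher at 24 h, going from 0.295 to 0.456 CPM in WT DMSO to 2.54 to 3.47 CPM and from 0.385 to 0.591 CPM in KO DMSO to 3.38 to 3.83 CPM. The epithelial sum was 5.90 to 6.36 CPM in WT DMSO, 10.8 to 13.0 CPM in KO DMSO and below 1 CPM at 24 h in both lines, and the leukocyte sum was 11.7 to 12.0 CPM in WT DMSO and 15.8 to 17.4 CPM in KO DMSO. Among single leukocyte markers the highest log2 difference of KO from WT was 6.92 in DMSO, 6.82 at 6 h and 7.24 at 24 h. Of these markers Ptprc was at 0 in 9 of the 18 libraries and reached at most 1.33 CPM. The 10 most abundant genes took 5.59% to 7.45% of the reads in the other libraries and 9.28% to 9.57% in KO cells at 24 h. The part of these shifts in the carrier results was not tested. In bulk RNA, fewer cells of a type and less RNA per cell cannot be told apart.

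The cystine carrier Slc7a11 (GRCm38 chr3:49892526-50443614, minus strand, 12 exons) showed the largest changes from DMSO among the 9 genes, at both times and in both lines. In WT cells it stood at 54.3, 61.5 and 61.3 CPM in DMSO, at 214, 206 and 226 CPM after 6 h of CFZ, and at 227, 229 and 232 CPM after 24 h. In KO cells it stood at 33.2, 32.5 and 34.5 CPM in DMSO, at 286, 265 and 246 CPM after 6 h, and at 409, 384 and 349 CPM after 24 h. Every CFZ library was thus far above every DMSO library, and the KO cells started lower and ended higher than WT. The rise was 3.66-fold at 6 h and 3.90-fold at 24 h in WT (log2 1.87 ± 0.056 and 1.96 ± 0.056, SE, adjusted p = 1.4e-23 and 9.6e-25). In KO it was 7.97-fold and 11.3-fold (log2 2.99 ± 0.060 and 3.50 ± 0.059, adjusted p = 2.8e-28 and 4.9e-31). Between 6 h and 24 h Slc7a11 rose further in KO (1.42-fold, adjusted p = 4.7e-11). In WT the corresponding log2 difference was 0.091 (95% interval -0.011 to 0.194, adjusted p = 0.10). It was called with library size alone (0.12, adjusted p = 0.038) and in a fit of only the compared groups (0.083, adjusted p = 0.016), and it was 0.046 and 0.023 without WT 6 h replicate 1 or 2.

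**Figure D1:**
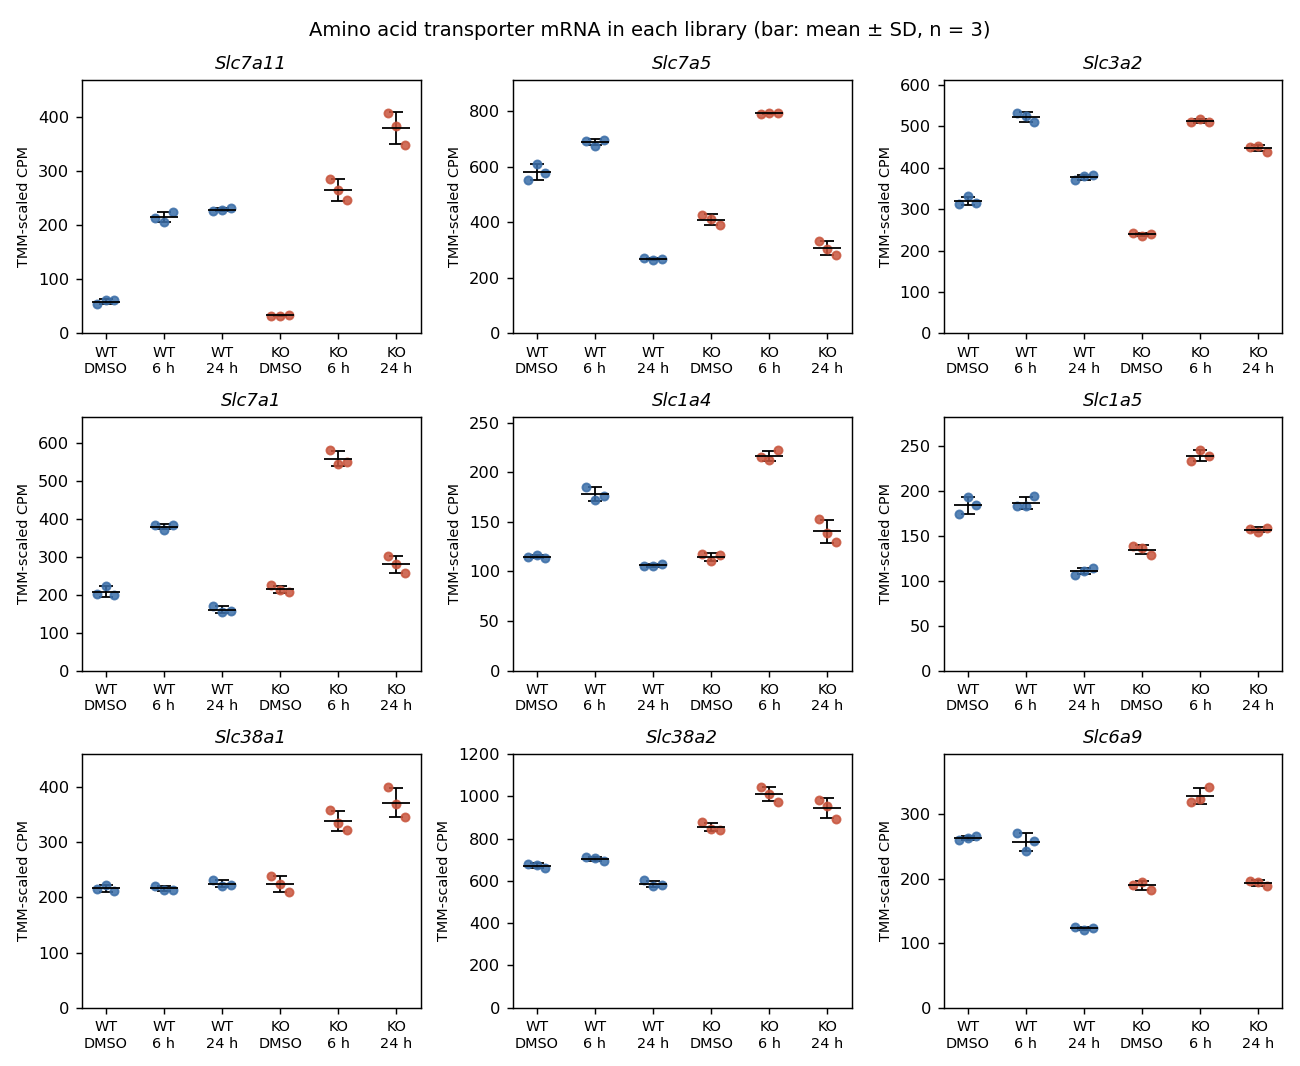
TMM-scaled CPM of the 9 carrier genes in each of the 18 libraries (points; WT in blue, KO in red), with the mean and SD of the 3 libraries of a group as bars. Slc7a11 climbs from 33.4 CPM in KO DMSO to 380 CPM at 24 h, whereas Slc7a5, Slc7a1, Slc1a4, Slc1a5 and Slc6a9 stand lower at 24 h than at 6 h in both lines.

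The heavy chain Slc3a2 (chr19:8706882-8723369, minus strand, 10 exons) rose with Slc7a11 but by less. It was at 313, 331 and 316 CPM in WT DMSO, at 533, 525 and 509.5 CPM after 6 h and at 371, 379 and 381.5 CPM after 24 h. In KO cells the values were 243, 235.5 and 241 CPM in DMSO, 510.1, 518 and 510.1 CPM after 6 h, and 451, 452 and 439 CPM after 24 h. The groups of a line did not overlap, with the highest values at 6 h. Slc3a2 rose 1.63-fold at 6 h and 1.18-fold at 24 h in WT (adjusted p = 6.7e-19 and 5.2e-08) and 2.14-fold and 1.86-fold in KO (adjusted p = 1.4e-23 and 3.7e-22).

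The other light chain, Slc7a5 (chr8:121881150-121907694, minus strand, 10 exons), rose at 6 h and then fell below DMSO. Its WT values were 552, 612 and 579 CPM in DMSO, 692, 675 and 696 CPM at 6 h and 272.5, 265 and 268 CPM at 24 h. Its KO values were 428, 414 and 389 CPM in DMSO, 789.8, 794 and 792 CPM at 6 h and 333, 303 and 284 CPM at 24 h. No group of a line overlapped another. At 6 h the rise was 1.18-fold in WT and 1.93-fold in KO (log2 0.24 ± 0.043 and 0.95 ± 0.043, adjusted p = 7.6e-06 and 1.3e-18). At 24 h the level was 2.16-fold below DMSO in WT and 1.34-fold below it in KO (log2 -1.11 ± 0.045 and -0.42 ± 0.044, adjusted p = 8.1e-21 and 2.7e-10).

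Slc7a11 and Slc7a5 use the same heavy chain. Their mRNA levels were therefore also set against each other within each library, per kb of the longest coding transcript (9223 bases for Slc7a11, 3517 for Slc7a5 and 2813 for Slc3a2). Slc7a11 amounted to 0.0375 to 0.0404 of Slc7a5 in the WT DMSO libraries, to 0.117 to 0.124 at 6 h and to 0.318 to 0.330 at 24 h. In the KO libraries the same ratio was 0.0295 to 0.0338, 0.119 to 0.138 and 0.468 to 0.483. The ratio thus rose at each time in both lines, without overlap between the groups of a line. The ratio of Slc7a5 to Slc3a2 went the other way, from 1.41 to 1.48 in WT DMSO to 0.559 to 0.588 at 24 h, and from 1.29 to 1.41 in KO DMSO to 0.517 to 0.591 at 24 h. At 24 h the Slc7a5 to Slc3a2 ratios of WT and KO overlapped, whereas those of Slc7a11 to Slc3a2 did not (0.184 to 0.187 in WT and 0.243 to 0.277 in KO). These ratios are descriptions, with no test.

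**Figure D2:**
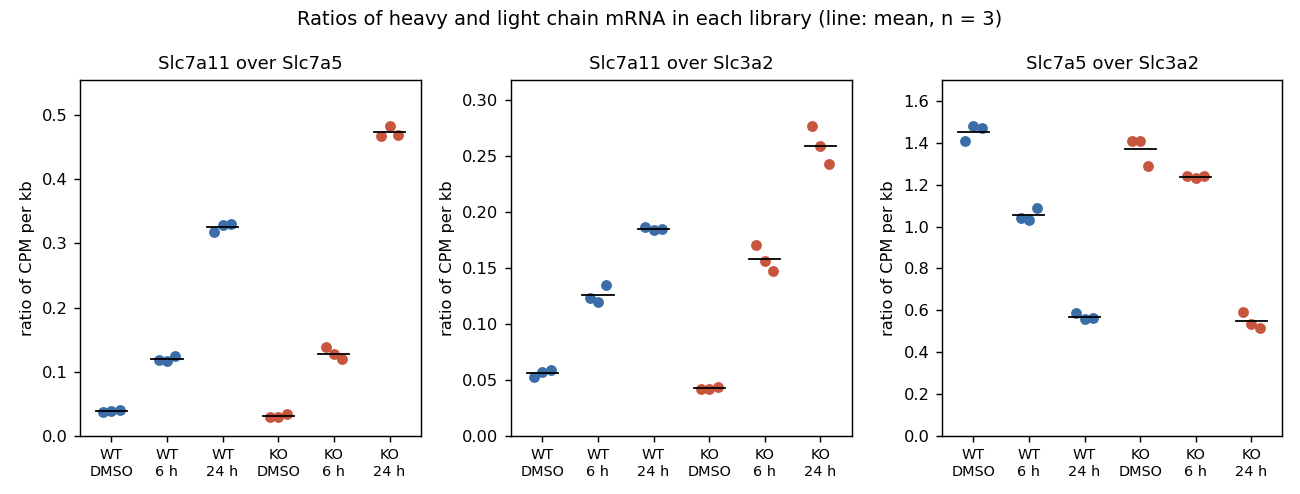
Ratios of the CPM per kb of Slc7a11 to Slc7a5, Slc7a11 to Slc3a2 and Slc7a5 to Slc3a2 in each library (points; WT in blue, KO in red; line, mean of 3). In KO cells Slc7a11 moves from 0.0295 to 0.0338 of Slc7a5 in DMSO to 0.468 to 0.483 at 24 h of CFZ.

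Slc7a1, the arginine and lysine carrier (chr5:148327410-148399904, minus strand, 13 exons), peaked at 6 h in both lines. WT libraries held 201, 224 and 198 CPM in DMSO, 382, 370.3 and 383.5 CPM at 6 h and 171, 154 and 156 CPM at 24 h. KO libraries held 224.5, 211.5 and 207 CPM in DMSO, 580.4, 543 and 549 CPM at 6 h and 300.3, 281 and 256 CPM at 24 h. The DMSO libraries of the 2 lines overlapped, and at both CFZ times every KO library was above every WT library. The change from DMSO was 1.83-fold up at 6 h and 1.30-fold down at 24 h in WT (adjusted p = 2e-16 and 5.5e-08), and 2.60-fold up at 6 h and 1.30-fold up at 24 h in KO (adjusted p = 1.4e-21 and 1.7e-08).

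Of the 2 small neutral amino acid exchangers, Slc1a4 (chr11:20302180-20332713, minus strand, 8 exons) followed a similar course. In WT it was at 115, 116 and 113 CPM in DMSO, 186, 172.5 and 176 CPM at 6 h and 105, 105.5 and 108 CPM at 24 h. In KO it was at 117, 110.1 and 116 CPM, then 215, 212.5 and 222.5 CPM, then 153, 139 and 130.1 CPM. It rose 1.55-fold in WT and 1.89-fold in KO at 6 h (adjusted p = 2.1e-14 and 2e-18). At 24 h it was 1.08-fold lower than DMSO in WT (log2 -0.11, adjusted p = 0.021) and 1.22-fold higher in KO (adjusted p = 2.2e-07). The WT decrease was not called without WT DMSO replicate 2, WT 24 h replicate 1 or WT 24 h replicate 2 (adjusted p = 0.064, 0.055 and 0.061).

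Slc1a5 (chr7:16781340-16798274, plus strand, 9 exons) differed from Slc1a4 in WT cells at 6 h. WT values were 174, 193 and 185 CPM in DMSO, 183, 183 and 194 CPM at 6 h and 107, 111 and 114.5 CPM at 24 h. KO values were 139, 136 and 129 CPM, 233, 245.5 and 238.5 CPM, and 158, 154 and 159 CPM. In WT the 6 h and DMSO libraries overlapped, with a log2 difference of 0.022 (95% interval -0.057 to 0.102, adjusted p = 0.61), and Slc1a5 was 1.65-fold lower at 24 h (adjusted p = 6.4e-17). In KO it rose 1.78-fold at 6 h and was still 1.17-fold above DMSO at 24 h (adjusted p = 3.3e-18 and 5.8e-06), the latter not called with scaling by library size alone (log2 0.040, adjusted p = 0.35).

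The sodium-coupled carriers Slc38a1 (chr15:96571418-96642913) and Slc38a2 (chr15:96687392-96699730) are neighbours on the minus strand, 44478 bases apart, with 16 exons each. Slc38a1 held 215, 223 and 211 CPM in WT DMSO, 221.5, 214 and 214 CPM at 6 h and 232, 219.8 and 223 CPM at 24 h. In KO it held 239, 224 and 211 CPM in DMSO, 358, 335 and 323 CPM at 6 h and 400, 369.6 and 346.5 CPM at 24 h. The 3 WT groups overlapped, with log2 differences from DMSO of 0.00061 at 6 h (95% interval -0.095 to 0.097) and 0.054 at 24 h (-0.041 to 0.150). In KO it rose 1.51-fold and 1.66-fold (adjusted p = 6e-13 and 7.6e-16).

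Slc38a2 was the more abundant of this pair, and its rise at 6 h in KO was the smallest of the 9. It was at 682, 676 and 659.5 CPM in WT DMSO, 714, 707 and 695.5 CPM at 6 h and 603, 576 and 580 CPM at 24 h. In KO it was at 878, 848 and 840.4 CPM, 1044, 1012 and 976 CPM, and 985, 955 and 893 CPM. Every KO library was above every WT library of any treatment. In WT the log2 change was 0.068 at 6 h (95% interval -0.0047 to 0.142, adjusted p = 0.087) and -0.20 at 24 h (adjusted p = 8.2e-06). In KO Slc38a2 rose 1.18-fold at 6 h and 1.10-fold at 24 h (adjusted p = 5.1e-07 and 0.00049), a log2 change of 0.14 at 24 h. Without KO 24 h replicate 1 the 24 h value was 0.079, with upper-quartile scaling it was not called (0.033, adjusted p = 0.39), and with library size alone it turned to -0.040 (adjusted p = 0.29).

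The glycine carrier Slc6a9 (chr4:117834506-117875198, plus strand, 14 exons) followed a course close to that of Slc1a5. WT libraries held 259.5, 263 and 266 CPM in DMSO, 269.7, 242 and 258 CPM at 6 h and 124, 120.3 and 124 CPM at 24 h. KO libraries held 190.2, 195 and 182 CPM in DMSO, 319, 323 and 341.5 CPM at 6 h and 197, 195 and 188 CPM at 24 h. In WT the DMSO and 6 h libraries overlapped (log2 -0.035, 95% interval -0.111 to 0.041), and the level was 2.14-fold lower at 24 h (adjusted p = 4.4e-22). In KO it rose 1.73-fold at 6 h (adjusted p = 3.6e-18), and at 24 h it overlapped DMSO (log2 0.031, 95% interval -0.047 to 0.108, adjusted p = 0.45). With library size alone the 24 h value in KO was a called decrease (-0.15, adjusted p = 0.00055), where the median of all genes moved to -0.15 as well.

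Slc6a9 counts carry an uncertainty that the other 8 do not. In the GENCODE M21 annotation 30.2% of its exonic bases overlap B4galt2, Ccdc24 and Gm17114 on the opposite strand. Searched on both strands, 20.9% of the stretches as long as a read also occur in Ccdc24 or Gm17114. Both shares can come from the same bases. It is not stated whether reads were counted by strand. B4galt2, a galactosyltransferase gene, had 119 CPM in WT DMSO and 31.4 CPM in WT at 24 h (log2 -1.94, adjusted p = 4.5e-27), and 131 and 50.3 CPM in KO (log2 -1.39, adjusted p = 1.2e-24). Ccdc24 had group means of 3.46 to 13.0 CPM. Their part in the Slc6a9 values was not tested. For Slc38a1, 1.40% of such stretches also occur in 4632432E15Rik, and for Slc3a2 0.0858% occur in Aaed1 or Tmed5.

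Counted over the 9 genes, 5 were called higher and 0 lower in WT at 6 h (Slc7a11, Slc7a5, Slc3a2, Slc7a1 and Slc1a4), where 35.6% of the 11762 genes tested were higher and 36.2% lower. The median log2 change was 0.24 for the 9 and -0.019 for all genes. With upper-quartile scaling or library size alone, which moved the all-gene median to -0.13 and -0.15, Slc1a5, Slc38a1 and Slc6a9 were also called, as lower. In KO at 6 h 9 were higher and 0 lower, against 34.5% and 35% of all genes, with medians of 0.92 and -0.0082. At 24 h in WT 2 were higher (Slc7a11 and Slc3a2) and 6 lower, against 43.2% and 40.5%, with medians of -0.20 and 0.023. At 24 h in KO 7 were higher and 1 lower (Slc7a5), against 44.4% and 41.1%, with medians of 0.29 and 0.030. With library size alone 5 were higher and 2 lower (Slc7a5 and Slc6a9), and with upper-quartile scaling 6 were higher and 1 lower.

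**Figure D3:**
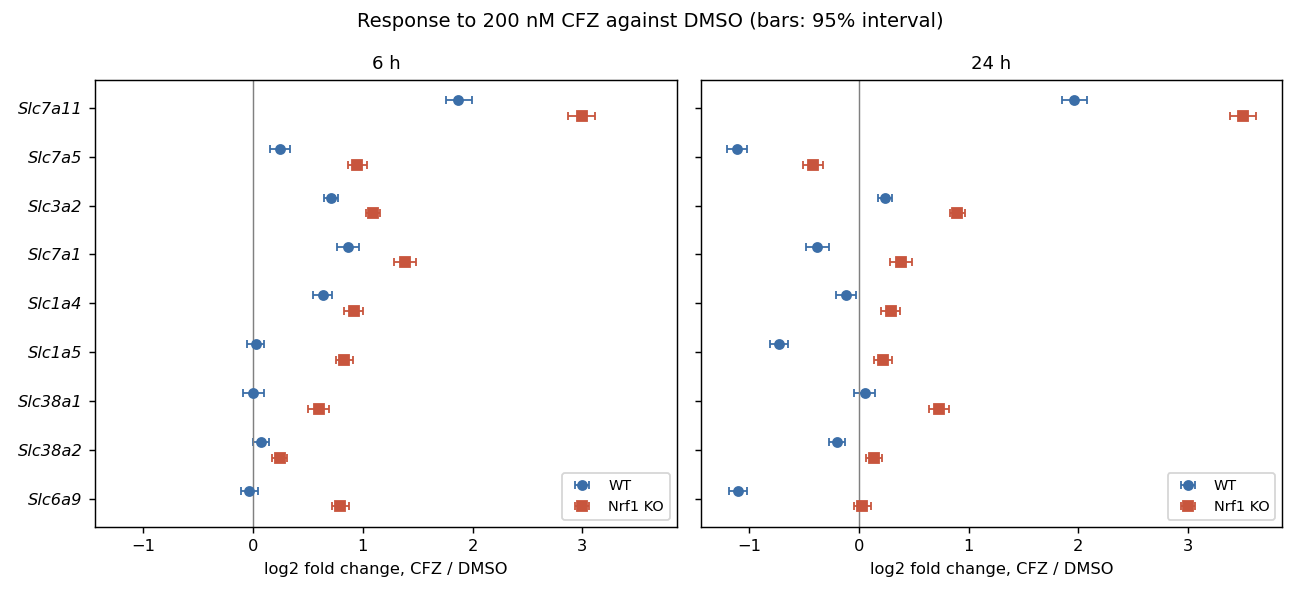
log2 fold change of CFZ against DMSO for the 9 genes at 6 h (left) and 24 h (right), in WT (circles) and KO (squares), with 95% intervals from edgeR's quasi-likelihood fit. For every gene the KO point lies to the right of the WT point, and in WT at 24 h 6 of the 9 points are called below 0.

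The step from 6 h to 24 h was downward for most of the 9 in either line. In WT 0 were called higher and 7 lower, against 36.9% and 35.4% of all genes, and in KO 2 were higher and 7 lower, against 38.7% and 38.3%. Slc7a5 fell by 1.36 on the log2 scale in WT and by 1.37 in KO, Slc6a9 fell by 1.06 and 0.76, and Slc7a1 fell by 1.25 in WT (adjusted p from 4.8e-18 down to 6.1e-23). The 2 called higher in KO were Slc7a11 and Slc38a1. The Slc38a1 value of 0.13 (adjusted p = 0.0094) came with overlapping libraries and was not called without KO 6 h replicate 3 or KO 24 h replicate 1 (adjusted p = 0.071 and 0.17, the latter with a value of 0.065), nor with library size alone. The Slc38a2 decrease of -0.098 in KO (adjusted p = 0.013) also came with overlapping libraries and was not called without KO 6 h replicate 1 or KO 24 h replicate 3 (adjusted p = 0.089 and 0.050), nor in a fit of only the compared groups (adjusted p = 0.056).

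Next, the 2 lines were compared within each treatment. In DMSO 5 carriers were lower in KO than in WT and 1 was higher, against 29.1% and 25.7% of all genes, with medians of -0.42 for the 9 and -0.017 for all genes. The lower ones were Slc7a11 (1.76-fold, adjusted p = 7.1e-12), Slc7a5 (1.42-fold, adjusted p = 2e-11), Slc6a9 (1.39-fold, adjusted p = 2.4e-12), Slc1a5 (1.37-fold, adjusted p = 2.3e-11) and Slc3a2 (1.33-fold, adjusted p = 2.2e-12). They thus included the heavy chain and those of its light chains that are among the 9, Slc7a11 and Slc7a5. Slc38a2 was 1.27-fold higher in KO (adjusted p = 9.8e-10). Slc7a1, Slc1a4 and Slc38a1 were not called, with differences of 0.045 (95% interval -0.055 to 0.146), -0.0031 (-0.091 to 0.085) and 0.052 (-0.042 to 0.146) on the log2 scale.

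After 6 h of CFZ 8 of the 9 genes were higher in KO and 0 lower, against 30.5% and 30.8% of all genes. The difference was greatest for Slc38a1 (1.57-fold), Slc7a1 (1.47-fold) and Slc38a2 (1.43-fold), with adjusted p of 2.1e-13, 9.7e-12 and 7.2e-14. Slc3a2 was not called (log2 -0.027, 95% interval -0.092 to 0.038), and its sign turned with upper-quartile scaling or library size alone. After 24 h 9 were higher and 0 lower, against 35.6% and 36.4%, with medians of 0.65 and -0.0031. The 24 h differences ran from 1.14-fold for Slc7a5 (adjusted p = 0.00035) to 1.75-fold for Slc7a1 (adjusted p = 3.1e-15), with Slc7a11 1.66-fold higher (adjusted p = 1.3e-14). Slc7a11, Slc7a5, Slc3a2, Slc1a5 and Slc6a9, 5 of the 9, were lower in KO in DMSO and higher in KO at 24 h, as were 6.64% of all genes tested.

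**Figure D4:**
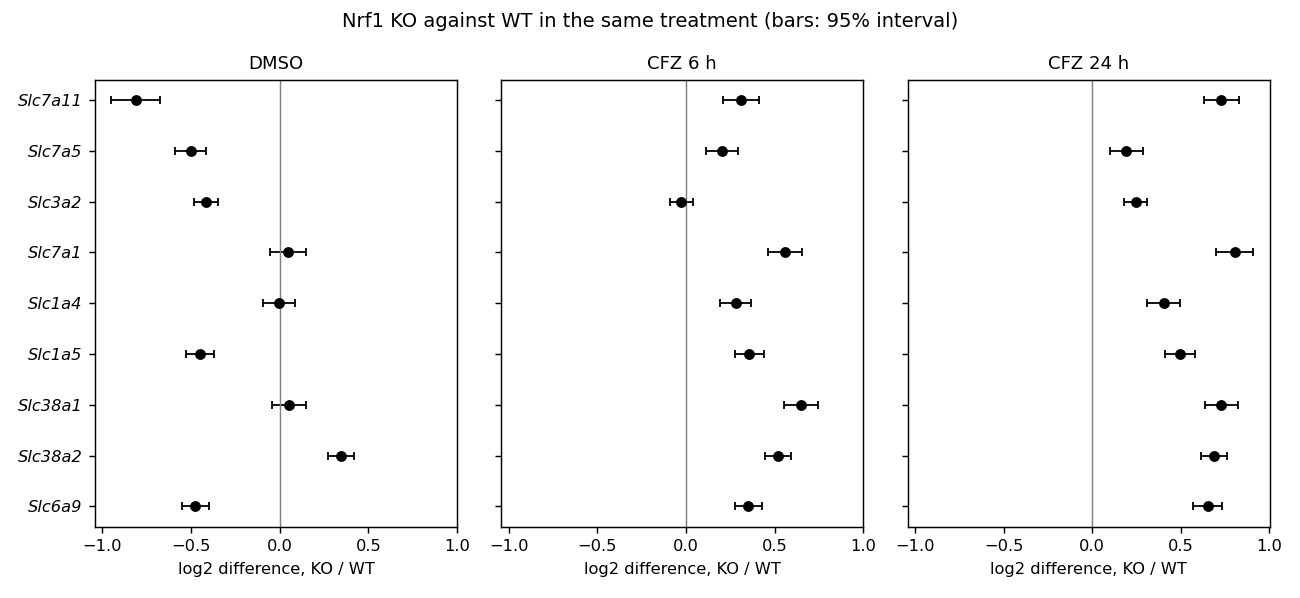
log2 difference between KO and WT for the 9 genes in DMSO, at 6 h and at 24 h of CFZ, with 95% intervals. In DMSO 5 points are called below 0 and 1 above it, whereas at 24 h all 9 lie above 0, between 0.19 and 0.80.

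Whether CFZ acted to a different extent in the 2 lines was tested by the interaction of line and treatment, which is the KO log2 response minus the WT log2 response. All 9 interactions were positive and called at 6 h, where 19.8% of all genes were called in that direction and 18.4% in the other. The same held for all 9 at 24 h, against 29.7% and 30%. The medians of the 9 were 0.60 and 0.69, and those of all genes 0.017 and 0.0049. The interactions at the 2 times share the DMSO libraries. The 9 genes were chosen with earlier results of these data known, so their counts beside those of all genes are a description.

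The interaction of Slc7a11 was 1.12 ± 0.084 (SE) at 6 h and 1.54 ± 0.082 at 24 h (adjusted p = 1.7e-12 and 1.6e-16), so its fold response was 2.18 and 2.91 times as large in KO. Slc6a9 came next, with 0.83 ± 0.053 and 1.13 ± 0.055 (adjusted p = 4.1e-14 and 1.5e-17). On the opposite strand B4galt2 had 0.28 and 0.55, and Ccdc24 had -0.24 and 0.25 (adjusted p = 0.23 at either time for Ccdc24). Slc1a5 had 0.81 ± 0.055 and 0.95 ± 0.057 (adjusted p = 2.2e-13 and 2.9e-15). For Slc6a9 and Slc1a5 the WT libraries at 6 h overlapped those in DMSO, while the KO level rose. Slc38a2 had the smallest values, 0.17 ± 0.050 and 0.34 ± 0.050 (adjusted p = 0.0070 and 8e-07), and the 6 h value was not called without WT DMSO replicate 1 (0.14, adjusted p = 0.053) or WT 6 h replicate 3 (0.13, adjusted p = 0.057).

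**Figure D5:**
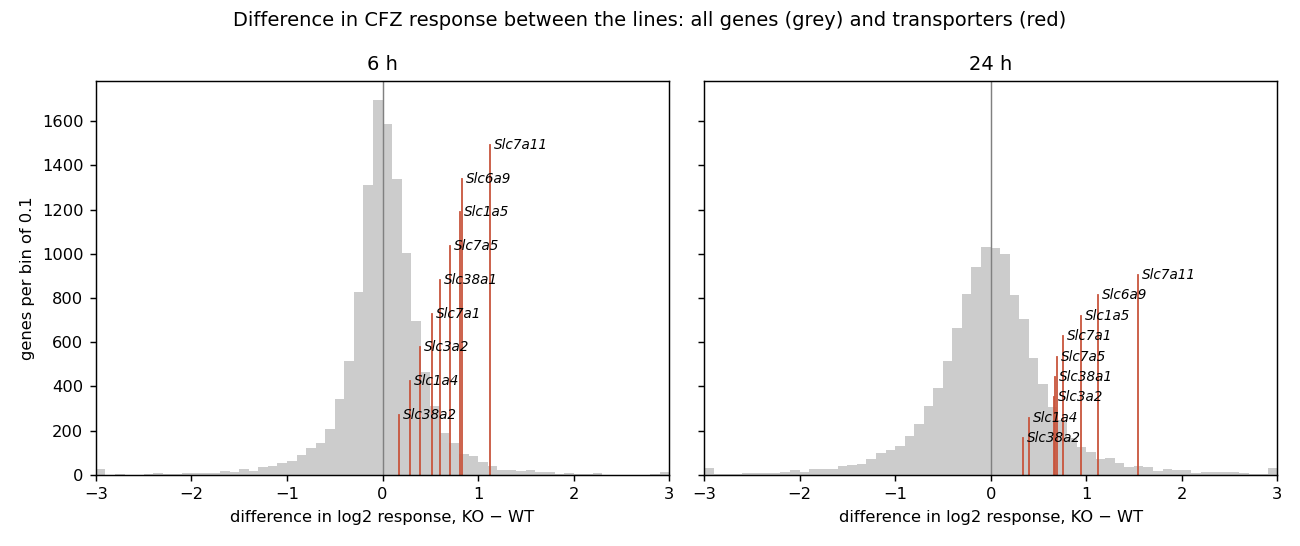
Difference between the lines in the log2 response to CFZ at 6 h (left) and 24 h (right), with all 11762 genes as grey bins of 0.1 (values beyond 3 in the end bins) and the 9 carriers as red lines, whose heights only separate the names. The 9 lines lie at 0.17 to 1.12 at 6 h and at 0.34 to 1.54 at 24 h, on the right of the centre of the distribution.

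With a minimum change of 2-fold, fewer of the 9 were called. There was 1 in WT at 6 h (Slc7a11, against 9.63% of all genes in either direction), 3 in WT at 24 h (Slc7a11 higher, Slc7a5 and Slc6a9 lower, 25%), 3 in WT between the times (Slc7a5, Slc7a1 and Slc6a9, lower, 12.1%), 3 in KO at 6 h (Slc7a11, Slc7a1 and Slc3a2, 7.56%), 1 in KO at 24 h (Slc7a11, 26.7%) and 1 in KO between the times (Slc7a5, lower, 15.8%). Slc7a1 in KO between the times was just short of 2-fold (log2 -0.9999). None of the 9 differed 2-fold between the lines in DMSO, at 6 h or at 24 h, where 4.97%, 7.31% and 12.2% of all genes did. The interaction exceeded 2-fold for 1 gene at 6 h (Slc7a11, 2.78%) and for 2 at 24 h (Slc7a11 and Slc6a9, 8.6%).

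Per kb of the longest coding transcript, the order of mRNA levels in WT DMSO was Slc7a5 at 165 ± 8.49 CPM per kb (SD, n = 3), Slc38a2 at 144 ± 2.54, Slc3a2 at 114 ± 3.41, Slc6a9 at 75.6 ± 0.992 and Slc1a5 at 66.5 ± 3.39. Slc38a1, Slc1a4 and Slc7a1 followed at 28.9 to 29.8 CPM per kb with overlapping libraries, and Slc7a11 was last at 6.40 ± 0.443. In KO at 24 h Slc38a2 led at 203 ± 10.1 CPM per kb, before Slc3a2 at 159 ± 2.60 and Slc7a5 at 87.2 ± 7.07. Slc1a5, Slc6a9 and Slc38a1 overlapped their neighbours at 51.2 to 56.7 CPM per kb, as did Slc7a11, Slc7a1 and Slc1a4 at 35.8 to 41.3. Slc7a11 thus stood at place 9 of 9 in WT DMSO and at place 7 in KO at 24 h. With lengths over all annotated exons the order changed within both groups, with Slc38a2 in place 3 in WT DMSO and place 2 in KO at 24 h. In KO at 24 h Slc38a1 then moved from place 6 to 9 (51.2 to 21.6 CPM per kb) and Slc1a4 from place 9 to 6 (35.8 CPM per kb with either length).

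Across the 18 libraries, the carriers fell into more than 1 pattern (Pearson's r of log2 CPM, given as a description, since libraries of a group share their treatment). Slc7a1 and Slc1a4 were each other's most similar gene of all tested (r = 0.985), and Slc1a5 was most similar to Slc6a9 (r = 0.968). Slc7a11 correlated with its heavy chain Slc3a2 at 0.887 and with the other light chain Slc7a5 at -0.087. The genes most like Slc7a11 were Atf3 (r = 0.997), a stress-induced transcription factor of the ATF family, Zyx (0.989) and Sesn2 (0.989). Those most like Slc7a5 were Aldh18a1 (0.996), an enzyme of proline synthesis, Pcgf5 (0.982) and Asns (0.980), the asparagine synthetase. For Slc3a2 they were Eif3a, Mdm4 and Myo19, for Slc38a1 Lrp4, Plagl1 and Slain2, and for Slc38a2 Morc3, Chaf1b and Cdt1, at r between 0.966 and 0.981. After Slc1a4, Slc7a1 was nearest to Gpr176 and Fkbp4, and Slc1a4, after Slc7a1, to Cdr2 and Elovl5. Slc1a5 was next nearest to Gpt2, an alanine transaminase, and Tcf12, and Slc6a9 was nearest to Zbtb18, Tcf12 and Mtss1l, at r between 0.964 and 0.984.

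To place the 9 genes among other amino acid carriers, 25 further plasma membrane carriers were listed, of which 14 could be tested. At 24 h 5 were higher and 6 lower in WT, and 6 higher and 5 lower in KO, which is near the shares of all genes (43.2% and 40.5%, and 44.4% and 41.1%). The interaction was called as positive for 4 of the 14 and negative for 1 at 6 h (19.8% and 18.4% of all genes), and for 6 and 0 at 24 h (29.7% and 30%), with a median of 0.34 at 24 h. Slc7a2, the second cationic carrier, had the highest values, with 0.94 at 6 h and 1.34 at 24 h (adjusted p = 1.9e-12 and 7e-17). It stood at 152 ± 2.98 CPM in WT DMSO and 163 ± 4.18 CPM at 24 h, and at 83.1 ± 4.01 and 224 ± 21.9 CPM in KO. Slc43a2, a neutral amino acid carrier, rose by 1.32 in WT and 2.23 in KO at 24 h on the log2 scale, from 2.13 ± 0.364 and 1.74 ± 0.0279 CPM in DMSO. The glutamate carrier Slc1a3 (log2 -2.19 in WT and -1.65 in KO) and the neutral amino acid carrier Slc38a4 (log2 -1.59 and -1.32) fell in both lines at 24 h. Slc38a4 is the next Slc38 gene on chromosome 15, 295089 bases from Slc38a2. Slc1a2, another glutamate carrier, rose from 0.0221 to 0.699 CPM in WT and from 0.974 to 4.89 CPM in KO.

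All 6 lysosomal amino acid carriers listed were tested, and at 24 h 5 were higher and 0 lower in either line, against 43.2% and 40.5% of all genes in WT and 44.4% and 41.1% in KO. Pqlc2, which exports cationic amino acids from lysosomes, rose by 1.83 in WT and 0.92 in KO on the log2 scale, with a negative interaction at 24 h (-0.91, adjusted p = 7.7e-07). Slc15a4 rose by 1.03 and 1.22, Slc38a7 by 0.80 and 1.26 and the arginine-sensing Slc38a9 by 0.56 in WT (0.17 in KO, adjusted p = 0.089). Ctns, which exports cystine, rose by 0.62 in KO (adjusted p = 3.1e-13) and had a change of 0.10 in WT (adjusted p = 0.075), and its interaction was 0.52 (adjusted p = 2.7e-07).

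Of 7 tested genes of cystine and glutathione use, 6 were higher and 1 lower in WT at 24 h, and 7 were higher and 0 lower in KO, against 43.2% and 40.5%, and 44.4% and 41.1%, of all genes. Their interactions did not share one sign, with 3 positive and 2 negative calls at 24 h, against 29.7% and 30%. For Gclm, a subunit of the first enzyme of glutathione synthesis, the rise was 1.82 in WT and 1.43 in KO on the log2 scale (interaction -0.39, adjusted p = 2.2e-07), and for the glutathione reductase Gsr it was 1.54 and 0.50 (interaction -1.04, adjusted p = 2.2e-15). Gclc, the other subunit of that enzyme and named after its values were seen, went the other way, with rises of 1.78 and 2.48 (interaction 0.70, adjusted p = 4.6e-12). Txnrd1, the cytosolic thioredoxin reductase, rose by 2.08 and 2.05. Chac1, which degrades glutathione, rose by 0.61 and 1.41 (interaction 0.80, adjusted p = 1e-10). Cth, which makes cysteine from cystathionine, fell by 0.81 in WT and rose by 0.18 in KO (interaction 0.99, adjusted p = 6e-11).

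Of 8 genes of factors known to regulate carriers, 6 were higher and 2 lower at 24 h in both lines, against 43.2% and 40.5% of all genes in WT and 44.4% and 41.1% in KO, and the interaction was positive for 3 and negative for 2, against 29.7% and 30% of all genes. Atf4, also named after its values were seen, rose by 0.40 in WT and 0.35 in KO, with an interaction of -0.041 (adjusted p = 0.48). Ddit3 (CHOP) rose by 1.47 in WT and 3.28 in KO (interaction 1.81, adjusted p = 9.8e-21), and Bach1, a repressor at antioxidant response elements, by 1.12 and 1.42 (interaction 0.30, adjusted p = 0.00019). Nfe2l2, the gene of Nrf2, rose by 0.82 and 0.48 (interaction -0.34, adjusted p = 6.4e-07), and Myc by 0.55 and 0.18 (interaction -0.37, adjusted p = 0.00012). Cebpb and Cebpg, whose products can pair with ATF4, had changes of -0.71 and -0.88 in WT and of -1.01 and -0.69 in KO. All these are mRNA levels, and RNA-sequencing did not measure the protein or the activity of the factors.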

How the data were processed

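mRNA was measured by RNA-sequencing in 3 NIH-3T3 libraries for each of 6 groups, 18 in all. The authors made stranded mRNA libraries (KAPA kit, paired 125-base reads) and processed them with RNA Express, which joins STAR and DESeq2. They deposited raw counts, whole reads per gene symbol without normalization, for 23420 symbols, of which 6577 had no count. Versions, genome build, annotation and use of strand are not given in the sources used here. Samples were grouped by their labels.

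From the deposited counts, edgeR 4.0.16 in R 4.3.3 was run after filterByExpr (count of 10, total of 15), with TMM scaling and one quasi-likelihood model of the 6 groups. Benjamini-Hochberg adjustment covered the 11762 genes tested, in each of 11 comparisons. Each log2 fold change has an SE taken from its F statistic (absolute value over the root of F). Correlations used log2 CPM with a prior count of 2. With a common biological coefficient of variation of only 3.13%, even small differences were called. The study calls the replicates biological without saying how they were separated. The p-values therefore set each difference against the spread between these libraries, which need not equal that between separate cultures. No pair of replicates differed by less than the sampling noise (chi-square per degree of freedom 1.44 to 8.47).

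Results were recomputed without the expression filter, with DESeq2 1.42.0, with upper-quartile scaling or library size alone, on only the compared groups, with a block for the replicate number, with single libraries left out, and, added after seeing the data, a minimum fold of 2. On simulated counts with 200 genes changed 2-fold in KO cells at 24 h (11541 genes run), edgeR recovered 95.5% in the interaction at 24 h with 5 false calls, and DESeq2 91.5% with 3. The simulated counts had the same spread setting for every gene and no other difference between the groups. They therefore check the code and do not measure the error rate in these data.

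Coordinates, exons and lengths were matched by symbol to GENCODE M21 on GRCm38, and promoter windows to RefSeq on GRCm38.p6. Neither need be the authors' annotation. The members and lists were chosen with earlier results of these data known. Named are the 9 genes, Nfe2l1, the 3 genes nearest to each of the 9 over 18 libraries, and of each other list the called genes at a mean CPM of at least 1 with the 2 highest and 2 lowest changes in WT at 24 h and in the interaction at 24 h. Genes sharing exons with the 9 were named for that overlap, and Gclc and Atf4 after their values were seen.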

Additional observations from a re-analysis of the deposited data

Results flagged for a closer look

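The response to CFZ differed between the WT and KO cells for all 9 carriers at both times, by the interaction term of edgeR's quasi-likelihood test. On the log2 scale, KO response minus WT response, the values at 6 h were 1.12 for Slc7a11, 0.71 for Slc7a5, 0.39 for Slc3a2, 0.51 for Slc7a1, 0.28 for Slc1a4, 0.81 for Slc1a5, 0.60 for Slc38a1, 0.17 for Slc38a2 and 0.83 for Slc6a9. The values at 24 h were 1.54 for Slc7a11, 0.69 for Slc7a5, 0.66 for Slc3a2, 0.76 for Slc7a1, 0.41 for Slc1a4, 0.95 for Slc1a5, 0.68 for Slc38a1, 0.34 for Slc38a2 and 1.13 for Slc6a9. Adjusted p ran from 4.1e-14 (Slc6a9) to 0.0070 (Slc38a2) at 6 h and from 1.5e-17 (Slc6a9) to 1.3e-06 (Slc1a4) at 24 h. Of all genes tested, 19.8% and 29.7% were called in this direction. A positive value does not by itself mean a higher level in KO after CFZ. Slc3a2 was lower in KO in DMSO (log2 -0.42) and not called between the lines at 6 h of CFZ (-0.027), where 8 of the 9 were called higher.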

How the results depend on the processing

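Over 99 results for single carriers (9 genes in 11 comparisons) and 1296 alternative values, 1242 kept their direction and their side of the threshold. Of the others 35 changed sign, 14 lost a call and 11 gained one, where 6 of these 25 changes of call came with a change of sign. No sign changed in an interaction, and the only interaction to lose its call was that of Slc38a2 at 6 h, without 1 of 2 WT libraries (range 0.13 to 0.20 with a library left out). With a minimum fold of 2 the carriers called were 1, 3 and 3 in WT (6 h, 24 h, 24 h against 6 h), 3, 1 and 1 in KO, 0, 0 and 0 between the lines, and 1 and 2 in the interactions. With upper-quartile scaling or library size alone 8 carriers were called in WT at 6 h in place of 5.

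Scaling moved the median of all genes by over 0.1 from its main value in CFZ against DMSO: to -0.13 (upper quartile) and -0.15 (library size) in WT at 6 h, to -0.11 and -0.080 in WT at 24 h, to -0.12 (library size) in KO at 6 h, and to -0.077 and -0.15 in KO at 24 h. With library size alone the share of higher genes among those called was 35.4% in place of 49.6% in WT at 6 h (37.9% with the upper quartile), 36.4% in place of 49.7% in KO at 6 h, 41.6% in place of 52% in KO at 24 h, 57.7% in place of 46.9% and 60.8% in place of 49.8% between the lines in DMSO and at 6 h, and 40% in place of 49.8% in the interaction at 24 h. Called changes that moved by over 1.5 times and kept their call, with the upper quartile and library size in turn, were Slc7a5 in WT at 6 h (0.14 and 0.11), Slc3a2, Slc1a4 and Slc38a2 in WT at 24 h (0.10 and 0.13, -0.25 and -0.22, -0.34 and -0.30) and Slc1a4 in KO at 24 h (0.18 and 0.11). Slc1a5 in KO at 24 h was 0.11 with the upper quartile, and with library size Slc7a1 in KO at 24 h was 0.20, Slc38a2 in KO at 6 h 0.13 and Slc38a2 in KO between the times -0.17. With no filter Slc38a2 in KO at 24 h was 0.092.

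Signs changed as follows, in each case from a value that was not called, except for Slc38a2 in KO at 24 h, which became -0.040 with library size alone. Those of Slc1a5 and Slc38a1 in WT at 6 h with the upper quartile or library size and that of Slc6a9 in KO at 24 h with library size became called decreases (adjusted p from 0.00055 to 0.045). In WT at 6 h Slc1a5 was -0.0012 (DESeq2), -0.086 (upper quartile), -0.11 (library size) and -0.0055 (no filter), Slc38a1 was -0.023, -0.11, -0.13 and -0.027 in the same order, and Slc38a2 was -0.040 (upper quartile) and -0.064 (library size). With 1 library left out the WT 6 h values ran from -0.0096 to 0.060 for Slc1a5, from -0.019 to 0.024 for Slc38a1 and from -0.062 to 0.013 for Slc6a9. In WT at 24 h Slc38a1 was -0.082 (upper quartile), -0.051 (library size) and -0.0016 (no filter). In KO at 24 h Slc6a9 was -0.079 (upper quartile), -0.15 (library size), -0.020 (no filter) and -0.0074 (only the compared groups), and -0.014 to 0.051 with 1 library left out. Between the lines, Slc1a4 in DMSO was 0.0066 (DESeq2), 0.011 (upper quartile), 0.044 (library size), 0.0084 (no filter) and 0.016 (only the compared groups), and -0.021 to 0.022 with 1 library left out, and Slc3a2 at 6 h was 0.021 (upper quartile) and 0.040 (library size). The cause was not tested.

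Over all genes tested, libraries of the same replicate number deviated little together. Set against their group means, libraries of the same number deviated with correlations of -0.049 to 0.097 over 45 pairs, with 0 over 0.1. Libraries of different numbers were not compared in this way, so a weak pairing is not excluded. Nor does this settle pairing for single genes. Slc38a2 was highest in replicate 1 of every group, whereas Slc7a5 was not. A replicate block changed 1 call among the 99, that of Slc38a2 in WT at 6 h (0.069, adjusted p = 0.037). With the block 6 carriers were called in WT at 6 h in place of 5, and the other 10 counts of called carriers stayed the same.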
